A study of Mus musculus with 11 samples.

Results

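Fatty acid elongases and desaturases set the chain length and the number of double bonds of the fatty acids that a liver stores and builds into its membranes. In 11 liver transcriptomes of ovariectomized mice, 10 such genes were followed, the 6 elongases Elovl1, Elovl2, Elovl3, Elovl5, Elovl6 and Elovl7 and the 4 desaturases Fads1, Fads2, Scd1 and Scd2. They were chosen by gene symbol and are 10 of the 36788 identifiers measured. All mice were wild-type C57BL/6 females over 12 weeks of age that had been ovariectomized (OVX) and kept on a high-fat diet. FSH, here a recombinant human follicle-stimulating hormone, was injected daily in the mice of 5 libraries, and saline in those of the other 6. The paper's general description of its animals gives a mixed 129 and C57BL/6J background, whereas the labels give C57BL/6. RNA was taken from whole liver, so fewer cells of a type and less RNA per cell cannot be told apart.

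Elongases add a pair of carbons to an acyl-CoA in the first step of a cycle that the endoplasmic reticulum completes with further enzymes, and each elongase prefers its own substrates. Elovl6 lengthens palmitate to stearate, Elovl5 and Elovl2 act on polyunsaturated chains, and Elovl1, Elovl3 and Elovl7 make longer saturated and monounsaturated chains. Stearoyl-CoA desaturases, Scd1 and Scd2, place a double bond in stearate and palmitate, whereas Fads2 and Fads1 act in turn on the dietary polyunsaturated precursors of arachidonate and docosahexaenoate. In liver, Scd1 and Elovl6 are known as targets of the lipogenic factor SREBP-1c, and Elovl3 is known for a daily rhythm and for higher levels in males.

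Between 11410596 and 19909327 reads (median 15482793) were assigned to genes in the FSH livers and between 10801891 and 16077442 (median 12593808.5) in the saline livers. Values are CPM (counts per 1000000 reads of the library), and 3 reads, the most that a gene at 0 could still have had, correspond to 0.151 to 0.278 CPM. Such limits cover counting error only. FSH and saline livers separated along the first principal component, with 31.0% of the variance. All 8 hepatocyte markers were measured at a summed 104600 to 122500 CPM with FSH and 101600 to 125400 CPM with saline, and none passed the test. The labels number the libraries but do not say that each came from a separate mouse, so p-values measure the spread between these libraries.

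FSH livers had more Elovl6, Scd1, Scd2, Fads1 and Fads2 mRNA and less Elovl3 mRNA than saline livers, whereas Elovl1, Elovl2, Elovl5 and Elovl7 did not pass the test. Levels were compared on log2(CPM + 0.5) with limma in a fit over 12733 genes whose mean reached 0.5 CPM, and an adjusted p (Benjamini-Hochberg over all 12733) under 0.05 was taken as a call. Of the 10 members, 6 were called, where 10.6% of all tested genes were. Higher levels with FSH were called for 5 members, against 6.19% of all tested genes, and a lower level for 1 member, against 4.41%. When an absolute log2 fold change over 1 was required as well, 5 members passed, against 1.83% of all tested genes. The median log2 fold change was 0.79 over the 10 members and 0.02 over all tested genes.

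**Figure D1:**
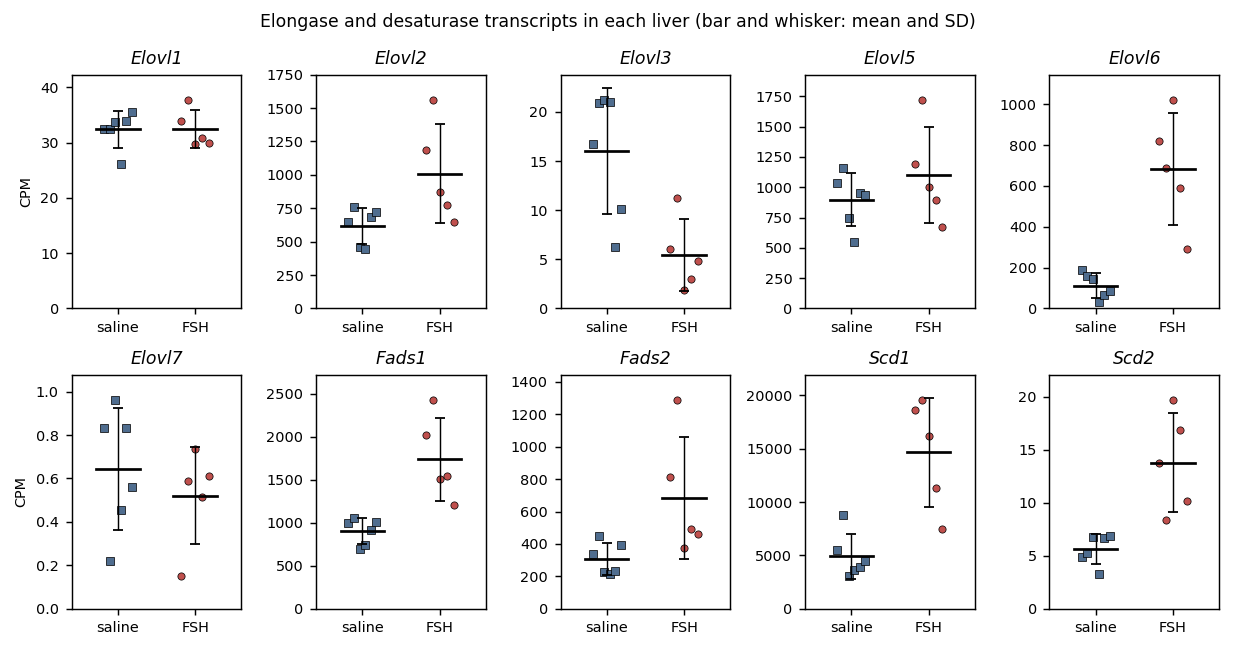
CPM of the 10 genes in each of the 6 saline livers (squares) and 5 FSH livers (circles), on linear axes that start at 0 and differ between panels; the bar and whisker give the mean and SD. The groups are fully apart for Elovl6, Fads1 and Scd2, and Elovl3 is the panel with FSH livers lowest.

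For 3 members, Elovl6, Fads1 and Scd2, every FSH liver lay above every saline liver, a separation in either direction that 6.67% of all tested genes showed. Elovl3, Fads2 and Scd1 passed limma's test with groups that overlapped in 1 or more livers. The plot of CPM by liver shows both patterns.

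Elovl6, the elongase that turns palmitate into stearate, had the highest fold change of the 10 genes. On GRCm38 it spans 129532355 to 129638495 of chromosome 3, where it overlaps the antisense gene Gm35986 and, on its own strand, the unclassified gene Gm43072, so reads in the overlaps cannot be told apart. Its level was 822, 688, 1022, 589 and 292 CPM in FSH livers 1, 2, 3, 4 and 6. In the saline livers it ran from 31.5 to 187 CPM with a median of 114. The lowest FSH liver, liver 6, was thus above the highest saline liver, and the saline livers themselves spread widely. The means were 683 ± 272 CPM (SD, n = 5) and 112 ± 60.2 CPM (SD, n = 6), a ratio of 6.11, and the log2 fold change was 2.72 (SE 0.41, limma adjusted p = 0.00077). An exact permutation test over the 462 divisions of the livers gave a two-sided p of 0.00433, the smallest that these group sizes allow. Leaving out any 1 liver kept the call.

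Upstream sequence is shown for Elovl6 and, as an elongase of higher level that was not called, for Elovl5. The letters are RefSeq promoters on GRCm38.p6 from position -250 to -51, counted from the RefSeq start, which for Elovl6 lies 31 bases inside the GENCODE gene and for Elovl5 1 base. They span chr3:129532136-129532335 for Elovl6 and chr9:77917115-77917314 for Elovl5, both on the plus strand. Capitals mark letters that matched a motif on either strand.
Elovl6: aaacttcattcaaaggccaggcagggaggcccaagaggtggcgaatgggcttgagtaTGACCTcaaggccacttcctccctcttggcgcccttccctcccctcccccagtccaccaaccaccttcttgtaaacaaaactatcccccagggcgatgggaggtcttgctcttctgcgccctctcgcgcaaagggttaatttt
Elovl5: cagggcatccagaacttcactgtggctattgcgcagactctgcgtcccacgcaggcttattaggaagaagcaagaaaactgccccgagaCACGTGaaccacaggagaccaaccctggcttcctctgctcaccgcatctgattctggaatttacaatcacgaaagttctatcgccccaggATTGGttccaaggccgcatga
Of the 10 members, 6 had a promoter entry, with 8 windows in all. Elovl3, Fads1, Scd1 and Scd2 had no entry and were not searched. The 250 bases before each RefSeq start were searched on both strands. For Fads2 and 1 Elovl2 window that start lay 243 bases inside the GENCODE gene, and for 1 Elovl1 window 1608 bases inside. Those windows lie mostly or wholly within the gene. In Elovl6 the only match was AGGTCA, the half-site of many nuclear receptors, read on the opposite strand at -193 to -188. That motif occurs in 14.0% of all 32851 RefSeq promoters. Elovl5 had the E-box CACGTG, found in 6.02% of all promoters, at -161 to -156, and CCAAT, found in 33.8%, on the opposite strand at -71 to -67 and, closer to the start, at -17 to -13. The sterol regulatory element TCACNCCAC, present in 1.05% of all promoters, and the D-box TTATGTAA, present in 0.819%, matched in none of the 8 windows. GGGCGG, the GC box, is present in 32.7% of all promoters and matched in the windows of Elovl1, Elovl2, Elovl7 and Fads2, in 1 of the 2 windows of Elovl2 and in both of Elovl1. Elovl1 also held CCAAT in one window and AGGTCA in the other, and 1 CCAAT match there overlapped a GC box. These matches describe letters in short windows and do not show binding.

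Scd1, the stearoyl-CoA desaturase of adult liver, was by far the most abundant of the 10 transcripts. It held 18677, 19583, 16179, 11365 and 7494 CPM in FSH livers 1, 2, 3, 4 and 6. The saline livers ran from 3108 to 8793 CPM with a median of 4212. FSH liver 6 lay below saline liver 2, the highest of its group, and the other 4 FSH livers lay above all saline livers. On average Scd1 took 1.47% of all reads with FSH and 0.491% with saline. Its log2 fold change was 1.58 (SE 0.28, limma adjusted p = 0.00223, exact permutation p = 0.00866).

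Scd2, the isoform best known from brain, was present at much lower levels. Its values were 13.8, 8.33, 19.7, 16.9 and 10.2 CPM in FSH livers 1, 2, 3, 4 and 6 and 3.27 to 6.90 CPM (median 5.95) in the saline livers. The 2 groups did not overlap, and the log2 fold change was 1.19 (SE 0.22, limma adjusted p = 0.00314, exact permutation p = 0.00433). Both genes lie on chromosome 19, Scd1 from 44394455 to 44407879 and Scd2 from 44293674 to 44306864, and how reads that match both were divided is not given in the sources used here, so Scd2 is uncertain. Liver 2, the FSH liver with the most Scd1, had the least Scd2 of its group. The log2 ratio of Scd1 to Scd2 was 9.99 ± 0.74 (SD, n = 5) with FSH and 9.60 ± 0.68 (SD, n = 6) with saline. That difference of 0.39 (95% interval -0.58 to 1.36) had an exact permutation p of 0.398, or 0.528 adjusted over the 2 desaturase ratios tested.

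Fads1 and Fads2, the desaturases of the polyunsaturated route, lie near each other on chromosome 19 and were both higher in FSH livers. Fads1, the later of the pair in the route to arachidonate, had 2020.4, 2429, 1504, 1538 and 1206 CPM in FSH livers 1, 2, 3, 4 and 6. In saline livers it had 693 to 1061 CPM (median 956), below every FSH liver. Its log2 fold change was 0.92 (SE 0.17, limma adjusted p = 0.00294, exact permutation p = 0.00433), short of an absolute log2 fold change of 1.

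Fads2, which acts first in the same route, had 813, 1289, 372, 491 and 459.8 CPM in the FSH livers in the same order. Saline livers had 212 to 448 CPM with a median of 286. FSH liver 3 fell within the saline range and FSH liver 2 stood well above all others. The log2 fold change was 1.05 (SE 0.29, limma adjusted p = 0.0304, exact permutation p = 0.0173). The call was lost, with the log2 fold change between 0.95 and 0.98, without FSH liver 1 (adjusted p = 0.0871) or saline liver 3 (0.0656), 4 (0.0619) or 5 (0.0595). Without FSH liver 2 the log2 fold change was 0.79 (adjusted p = 0.0574), and with no filter on low genes it was unchanged at 1.05 (adjusted p = 0.0636). Fads1 relative to Fads2 differed between groups by -0.14 on the log2 scale (95% interval -0.60 to 0.33, exact permutation p = 0.528, adjusted p = 0.528).

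**Figure D2:**
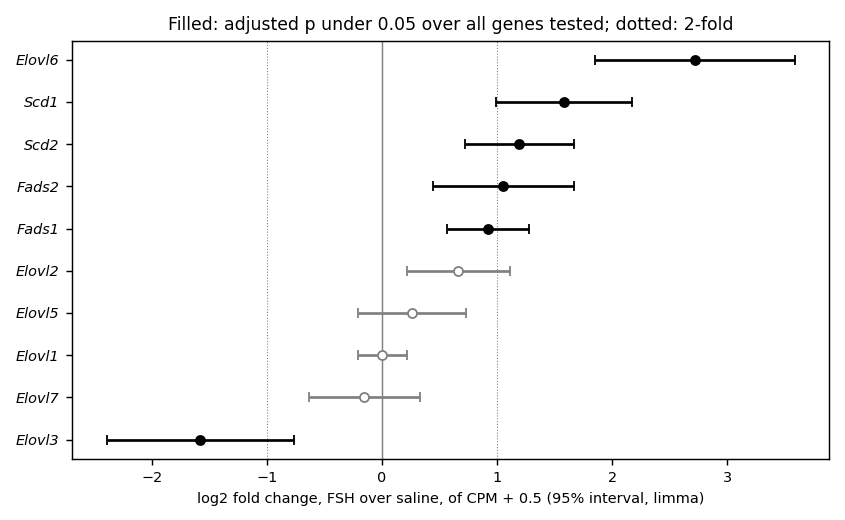
Log2 fold change of CPM + 0.5, FSH over saline, for each of the 10 genes, with its 95% interval from limma; filled points have an adjusted p under 0.05 over all genes tested and dotted lines mark 2-fold. Elovl6 lies at 2.72 and Elovl3 at -1.58, and the intervals of Elovl1, Elovl5 and Elovl7 span 0.

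Elovl3, which elongates saturated and monounsaturated chains and is best known from skin and brown fat, was the 1 member that fell. On GRCm38 its span is 46131897 to 46135694 of chromosome 19, where Pitx3 overlaps it on the other strand. Whether the counting used strand is not given in the sources used here, so reads of the 2 genes cannot be told apart. FSH livers 1, 2, 3, 4 and 6 had 6.08, 11.3, 1.87, 2.97 and 4.82 CPM. The saline livers ran from 6.20 to 21.2 CPM with a median of 18.8. All 5 FSH livers lay below that median and 4 lay below every saline liver, whereas FSH liver 2 exceeded saline livers 5 and 6 (6.20 and 10.1 CPM). The saline mean was 2.97 times the FSH mean, and the log2 fold change was -1.58 (SE 0.38, limma adjusted p = 0.0165, exact permutation p = 0.0173). Between 33 and 287 reads per liver stood behind these values.

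Besides Elovl6 and Elovl3, no elongase was called. Elovl2, which extends long polyunsaturated chains on the way to docosahexaenoate, had 1189.5, 1563, 868, 776 and 646 CPM in FSH livers 1, 2, 3, 4 and 6 and 442 to 762 CPM (median 665) in saline livers. Of the FSH livers, 4 exceeded all saline livers and liver 6 lay within their range. The log2 fold change of 0.66 (SE 0.21) missed the threshold in limma's test (adjusted p = 0.058). It passed with edgeR on the recovered reads (adjusted p = 0.0453), under upper quartile scaling (0.0443), in a fit with replicate number as a blocking term (0.0229), with a weight for each library (0.0306) and when FSH liver 6 was left out (0.0209). In the other 16 alternatives it stayed uncalled, with adjusted p-values up to 0.152 (without FSH liver 1) and a log2 fold change as low as 0.49 (without FSH liver 2).

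Elovl5, which lengthens polyunsaturated chains one step earlier, had 1192, 1723, 999, 898 and 675 CPM in the FSH livers and 548 to 1160.5 CPM (median 947) in the saline livers. FSH livers 1 and 2 exceeded every saline liver and the other 3 lay within the saline range, with a log2 fold change of 0.26 (95% interval -0.21 to 0.73, limma adjusted p = 0.512). Elovl1, which makes very long saturated chains for sphingolipids, had 33.9, 37.8, 29.7, 30.9 and 30.0 CPM with FSH and 26.1 to 35.6 CPM (median 33.1) with saline. Its log2 fold change was 0.00 (95% interval -0.21 to 0.21, limma adjusted p = 0.988), the narrowest interval of the 10, and its sign changed with the scaling. Elovl1 overlaps Cdc20 on the other strand.

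Elovl7 was barely detected. Only 3 to 13 reads per liver were assigned to it, or 0.151 to 0.736 CPM with FSH and 0.218 to 0.962 CPM with saline. At this depth no difference was detectable (log2 fold change -0.15, 95% interval -0.64 to 0.33, limma adjusted p = 0.727).

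Elovl3 was next set against each paralog within the same liver, as the log2 ratio of CPM + 0.5. Such a ratio cancels only a shift that both genes share equally, and otherwise carries the spread of both. The ratio of Elovl3 to Elovl6 was -6.96 ± 1.22 (SD, n = 5) with FSH and -2.66 ± 1.05 (SD, n = 6) with saline, a difference of -4.30 with groups fully apart. For Elovl2 the FSH livers ran from -8.52 to -6.92 and the saline livers from -6.68 to -4.36, a difference of -2.24 that also left the groups apart. Both had the smallest exact permutation p possible, 0.00433, which is 0.0108 adjusted over the 5 ratios. Against Elovl5 and Elovl1 the differences were -1.84 and -1.58, with overlapping groups and adjusted exact permutation p-values of 0.0144 and 0.0217. Elovl1 itself had a log2 fold change of 0.00, so its ratio restates the -1.58 of Elovl3. The ratio to Elovl7 differed by -1.42 (adjusted exact permutation p = 0.039) and rests on the few reads of Elovl7. Its adjusted p was 0.108 with a pseudocount of 0.1 CPM and 0.0635 to 0.0857 without FSH liver 3, 4 or 6 or saline liver 1, 2, 3 or 4. In all 5 ratios the FSH livers were lower.

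**Figure D3:**
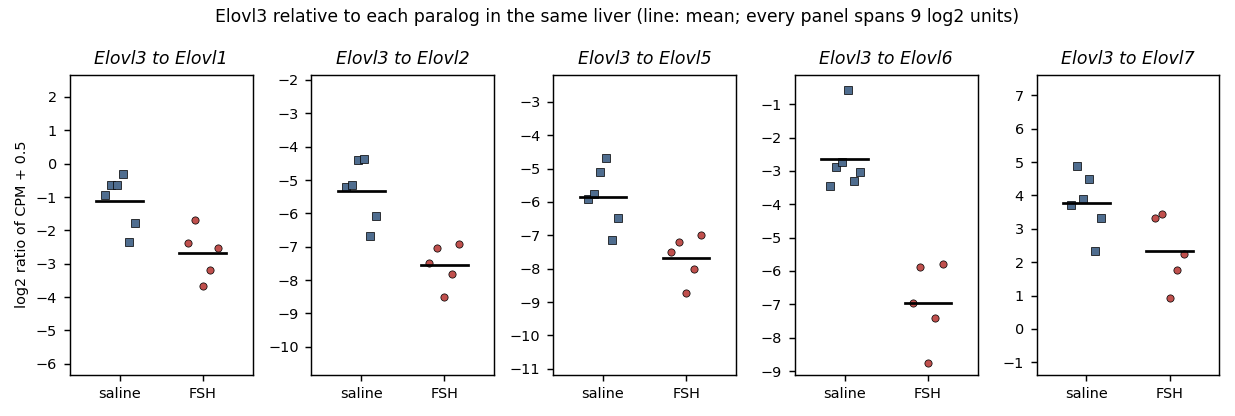
Log2 ratio of Elovl3 to each other elongase in the 6 saline livers (squares) and 5 FSH livers (circles), computed from CPM + 0.5; lines give means, and each panel spans the same number of log2 units around its own values. FSH livers are fully below saline livers for Elovl2 and Elovl6, with mean differences of -2.24 and -4.30, and overlap them in the other panels.

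Per length of exon, where genes can be compared with each other, Scd1 led in both groups. In saline livers it had 1004 ± 425 CPM per kb of exon (SD, n = 6), followed by Elovl5 with 255 ± 62.1, Fads1 with 188 ± 31.7, Elovl2 with 156 ± 34.3 and Fads2 with 93.8 ± 30.3. The ranges of neighbours in this order overlapped from Elovl5 down to Fads2. Below them stood Elovl6 with 17.4 ± 9.36 CPM per kb, Elovl1 with 11.9 ± 1.20 and Elovl3 with 8.12 ± 3.27, which also overlapped. Scd2 at 1.03 ± 0.26 and Elovl7 at 0.160 ± 0.070 CPM per kb were apart from these and from each other.

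In FSH livers Elovl6 had 106 ± 42.3 CPM per kb (SD, n = 5), and its range of 45.4 to 159 overlapped that of Fads2, 113 to 391, and no longer that of Elovl1, 10.9 to 13.9. Elovl3 had 2.74 ± 1.86 CPM per kb and a range of 0.946 to 5.71 that took in the whole range of Scd2, 1.53 to 3.61. In saline livers the same 2 genes had been apart, at 3.14 to 10.8 and 0.599 to 1.26 CPM per kb. Scd1 with 2997 ± 1047 CPM per kb remained first, and Fads1 (361 ± 100.4), Elovl5 (312 ± 113), Elovl2 (254 ± 93.2) and Fads2 (208 ± 114) lay close together.

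**Figure D4:**
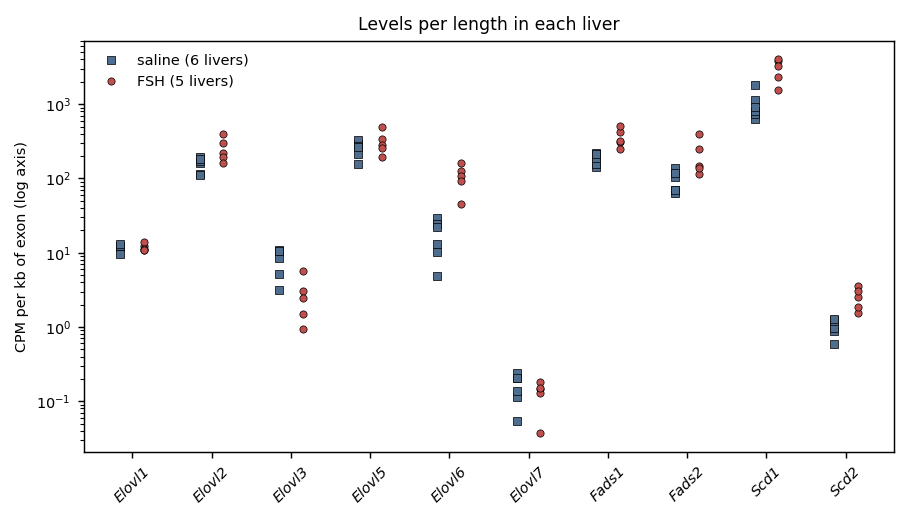
CPM per kb of exon of the 10 genes in each saline liver (squares) and FSH liver (circles), on a log axis. Elovl6 rises from the level of Elovl1 in saline livers to 45.4 to 159 in FSH livers, and Elovl3 falls to the level of Scd2.

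As a share of the summed elongase transcript per length, Elovl6 made up 15.6% ± 5.29 (SD, n = 5) with FSH and 3.78% ± 1.85 (SD, n = 6) with saline. The share of Elovl5 was 45.2% ± 2.52 with FSH and 56.5% ± 1.88 with saline, although its own level was not called. Elovl2 held 36.9% and 35.0%, and Elovl3 0.392% and 1.97%. The summed elongase level was 687 ± 227 CPM per kb with FSH and 448 ± 99.4 with saline, and that of the desaturases 3569 ± 1220 and 1286 ± 475. Scd1 made up 83.6% of the desaturase sum with FSH and 77.1% with saline, and Fads1 10.5% and 15.4%. These shares are given as descriptions and were not tested.

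The 5 members that rose did not order the livers in the same way. Among the FSH livers, liver 2 was highest for Fads1, Fads2 and Scd1 and lowest for Scd2, liver 3 was highest for Elovl6 and Scd2 and lowest for Fads2, and liver 6 was lowest for Elovl6, Fads1 and Scd1. Among the saline livers, liver 2 was highest for Fads1, Fads2 and Scd1, and liver 4 was lowest for Elovl6, Fads2 and Scd2. A single liver thus stood high for one desaturase and low for another.

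FSH liver 2 had the highest level of the FSH livers for 6 of 7 tested male-biased liver genes and the lowest for 6 of 11 female-biased ones. For the others, such as Nudt7, Cyp2b9, Cyp2b13 and Sult3a1, it lay within the range of its group. The widest gaps, chosen here after their values were seen, included Slco1a1, an organic anion transporter of male liver, which was at 174 CPM there and at 3.88 to 20.9 CPM in the other FSH livers, and Cyp3a41a, a cytochrome P450 of female liver, which was at 41.5 CPM against 755 to 1458 CPM. Saline liver 2 was likewise the lowest saline liver for Cyp3a41a (154.5 CPM), Cyp3a44, Cyp3a16, Sult2a1 (77.1 CPM) and Hao2, though not for the rest of the female-biased list. FSH liver 2 also had the highest Elovl3 value of its group. With that liver left out, the difference in Elovl3 was -1.88 on the log2 scale (limma adjusted p = 0.00412), and Elovl6 (2.69), Scd1 (1.46), Scd2 (1.35) and Fads1 (0.79) remained called, with adjusted p-values from 0.00133 to 0.0061.

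Genes of the circadian clock differed between the same livers. Of 18 tested clock genes, 6 were higher and 6 lower in FSH livers, where 6.19% and 4.41% of all tested genes were. Dbp, a transcription factor at the output of the clock, was at 42.6 to 121 CPM with FSH and 3.40 to 4.95 CPM with saline (log2 fold change 4.02, limma adjusted p = 1.15e-07). Per3 (2.61) and Tef (1.08) were higher as well. Arntl, which encodes the core activator BMAL1, was at 2.06 to 5.08 CPM with FSH and 13.2 to 22.8 CPM with saline (log2 fold change -2.33, limma adjusted p = 1.14e-05), and Npas2 (-3.61) and Cry1 (-1.31) were lower. The fold change of Npas2 depends on the pseudocount, since it was at or under 0.10 CPM in every FSH liver. The hour of collection is not given in the sources used here, and the part of the clock genes in the member values was not tested.

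The genes that supply substrate to the elongases rose together. Of 9 genes for cytosolic acetyl-CoA, malonyl-CoA, NADPH and palmitate, all 9 were called higher and 8 passed both thresholds, with a median log2 fold change of 1.62, where 6.19% of all tested genes were called higher. Fasn, the fatty acid synthase, averaged 1583 ± 483 CPM in the 5 FSH livers and 377 ± 182 CPM in the 6 saline livers (mean and SD, log2 fold change 2.20, limma adjusted p = 0.00139). Acss2, which makes acetyl-CoA from acetate, had a log2 fold change of 2.19, and Me1, the malic enzyme that supplies NADPH, of 1.62. Slc25a1, the mitochondrial citrate carrier, had the smallest change of the 9 at 0.70 (limma adjusted p = 0.000545), with 313 to 403 CPM in FSH livers and 185 to 268 CPM in saline livers.

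Some of the enzymes that work beside the elongases and desaturases were called, all of them higher with FSH. In the elongation cycle, 2 of 6 tested partners rose (6.19% of all tested genes were called higher), Tecr, the reductase of the last step (log2 fold change 0.65, limma adjusted p = 0.00283), and Hacd3, a dehydratase (0.45, limma adjusted p = 0.0096). The ketoacyl reductase Hsd17b12 had 135 ± 35.6 and 121 ± 21.1 CPM, and Tecrl was at 0 reads in every liver. Among 5 tested genes that bring electrons to the desaturases, 1 rose, the cytochrome b5 reductase Cyb5r3, from 556 ± 61.6 to 935 ± 121 CPM (log2 fold change 0.75, limma adjusted p = 0.000463). Cytochrome b5 itself, Cyb5a, had 1237 ± 138 CPM with FSH and 1257 ± 210 CPM with saline.

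Other elongase and desaturase genes were few in these livers. Of 7 listed, 3 were tested, and Fads6 (log2 fold change 0.56, limma adjusted p = 0.00662) and Fads3 (0.62, limma adjusted p = 0.0125), relatives of Fads1 and Fads2, were called higher with FSH, where 6.19% of all tested genes were. Degs1, the desaturase of ceramide synthesis, had 66.7 ± 5.60 and 68.1 ± 2.68 CPM. Elovl4, Scd3 and Scd4 had at most 3 reads in any liver.

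**Figure D5:**
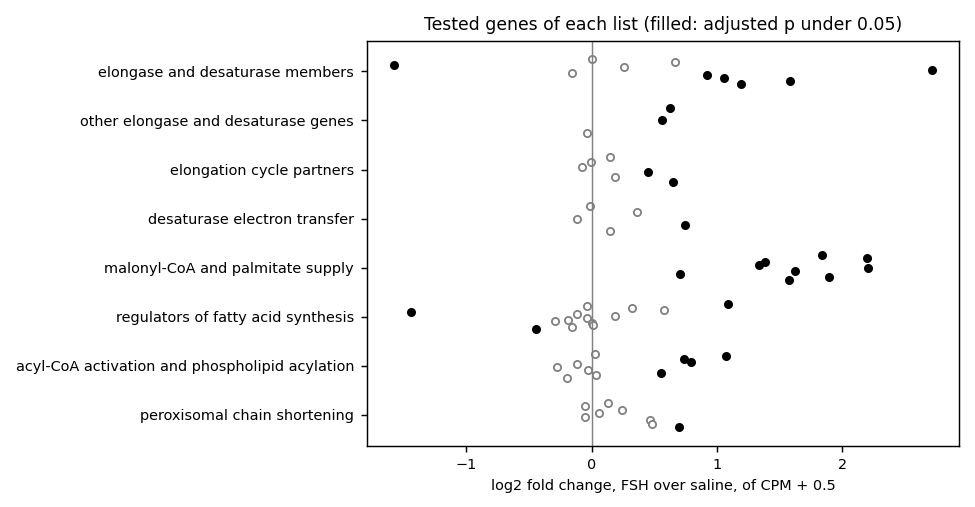
Log2 fold change of CPM + 0.5, FSH over saline, of each tested gene of the 10 members and 7 related lists; filled points have a limma adjusted p under 0.05. All 9 genes of malonyl-CoA and palmitate supply lie to the right of 0, whereas most points of the other lists are open and near 0.

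Of 14 regulators of fatty acid synthesis, 3 were called, where 10.6% of all tested genes were. Srebf1, which encodes the SREBP-1 factors, averaged 446 ± 29.7 CPM in the 5 FSH livers and 223 ± 86.5 CPM in the 6 saline livers (mean and SD, log2 fold change 1.09, limma adjusted p = 0.00474). Insig2, an endoplasmic reticulum protein that retains the SREBP precursor, was at 106 to 174 CPM with FSH and 278 to 405 CPM with saline (log2 fold change -1.44, limma adjusted p = 2.07e-05). Hnf4a, a hepatocyte nuclear receptor, was also lower (-0.44, limma adjusted p = 0.0369). Mlxipl, which encodes the glucose-responsive factor ChREBP, had 121 ± 12.0 and 156 ± 64.1 CPM and was not called.

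Downstream of the members, 4 of 10 tested genes of acyl-CoA activation and phospholipid acylation rose and none fell, where 6.19% of all tested genes were called higher and 4.41% lower. Among them were Acsl5, an acyl-CoA synthetase (0.79 on the log2 scale, limma adjusted p = 0.00611), and Acsl4, a synthetase that prefers arachidonate (0.73, limma adjusted p = 0.0134). Lpcat3, which puts polyunsaturated chains into phospholipids, rose by 0.56 (limma adjusted p = 0.00867). Of 8 genes of peroxisomal chain shortening, only Abcd3, a peroxisomal membrane transporter, was called (0.70, limma adjusted p = 0.0148), a share near the 10.6% of all tested genes.

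The profile over the 11 livers nearest to that of Elovl6, by the root mean square difference of centred log2(CPM + 0.5) values, was that of Fasn (0.319), followed by Acly (0.548) and Chrna4 (0.566), while Elovl6 itself varied by 1.56 about its mean. For Elovl3, which varied by 1.06, the nearest were Mup19 (0.435), Aatk (0.460) and Mup16 (0.469). The Mup genes are near-identical copies whose reads may be split among them, so these values are uncertain.

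Markers of other cell types were measured in the same livers. Adipocyte markers summed to 1.40 to 7.45 CPM with FSH and 1.49 to 4.37 CPM with saline over 8 genes, with Ucp1, Retn and Lep at 0 in every liver. Of 8 macrophage markers, 1, Cd68, was called, lower with FSH, a share near the 10.6% of all tested genes called. All 8 had a negative log2 fold change, from -0.78 to -0.20 with a median of -0.47, and their sum ran from 111 to 304 CPM against 183 to 360 CPM. Lyve1 among 8 endothelial markers was lower and Krt7 among 5 tested cholangiocyte markers was higher (4.41% and 6.19% of all tested genes were), and none of 8 stellate cell markers (all negative, median log2 fold change -0.18) or 5 tested erythroid markers was called. Of 6 pancreatic acinar markers, Prss2, Pnlip and Cel were at 0 in every liver. The part of these cells in the member values was not tested.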

How the data were processed

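Liver RNA was made into NEBNext Ultra libraries and sequenced as paired ends on a HiSeq2500. The design text names an RNeasy kit, the labels a papain digestion. The authors deposited 1 table of CPM (a gene's reads per 1000000 in its library) for 5 FSH and 6 saline livers. The submitters' processing notes name FastQC 0.11.2, cutadapt, Trim Galore 0.3.3, STAR, RSEM and mm10, without roles. The annotation and use of strand are not given in the sources used here. All CPM values (100%, tolerance 0.01 reads) were whole multiples of 1 read, so reads were recovered. Total depth was 10801891 to 19909327 reads.

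Identifiers were matched to GENCODE M21 (GRCm38), which named 35555 of 36788. The test was limma 3.58.1 (R 4.3.3, intensity trend, Benjamini-Hochberg) on log2(CPM + 0.5), for genes averaging 0.5 CPM or more, so fold changes of low genes are understated. Single genes and ratios were tested with exact two-sided permutation tests (scipy 1.17.1). Levels between genes were set per kb of merged exons. Members and lists were chosen with earlier results of these data known. Named were all members, up to 3 called genes per list and direction with the smallest p (otherwise the one with the smallest p), Fasn, Srebf1, Dbp and Arntl, and the 3 profiles nearest to Elovl3 and to Elovl6. Other genes were named after their values were seen. Alternatives were each liver left out in turn, a block for the replicate number, other pseudocounts, scalings and filters, array weights, a fit without the trend and, added after seeing the data, edgeR 4.0.16 on the recovered reads. The functions were tested on simulated data. Protein sequences were not used here. No pair of libraries within a group agreed within sampling noise (lowest chi-square per gene 11.4).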

Additional observations from a re-analysis of the deposited data

Results flagged for a closer look

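Saline liver 4 had 26.1 CPM of Elovl1, below the other 5 saline livers, of which the nearest had 32.5 CPM. The gap was 0.671 of the range of the 6 values, which is over the critical value of Dixon's test for a single distant sample. Of 20 groups tested (10 genes in FSH and in saline livers) this was the only one, and chance gives about 1 in 20. Without this liver the log2 fold change of Elovl1 was -0.06 (limma adjusted p = 0.762), and Elovl1 was not called with or without it.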

How the results depend on the processing

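Elovl3, Elovl6, Fads1, Scd1 and Scd2 kept their direction and their call in all 21 alternatives, with log2 fold changes of -1.88 to -1.30, 2.40 to 3.0, 0.79 to 1.04, 1.46 to 1.80 and 1.05 to 1.35. Elovl3 came closest to losing its call, with a limma adjusted p of 0.0471 without FSH liver 4. For the others the largest was 0.0118 (Scd2). Elovl5 and Elovl7 stayed uncalled wherever they were tested. Elovl2 and Fads2 changed sides as given above, and for neither was the cause tested. Members called ranged from 5 to 7. Genes called were 1350, and leaving out 1 liver gave 803 (without FSH liver 1) to 1659 (without FSH liver 6). Array weights gave 1892. edgeR called 1438 of 12274 genes and 7 of 9 members tested, since Elovl7 fell under its filter. Elovl1 changed sign with median of ratios scaling (-0.0235), array weights (-0.0203) and edgeR (-0.0236), and leaving out 1 liver gave -0.056 to 0.0338. The Fads1 to Fads2 difference ran from -0.2745 to 0.0002 when 1 liver was left out, the latter without FSH liver 2. The Elovl3 to Elovl7 difference was -1.4158 (adjusted p = 0.108, exact permutation test) with a pseudocount of 0.1 CPM and -1.712 to -1.0714 with 1 liver left out. Same-numbered libraries correlated at 0.065, 0.356, 0.0193, 0.137 and -0.0662. These values were not set against those of differently numbered libraries, so whether the numbers pair the samples was not tested. With the replicate number as a block, 1210 genes and 7 members were called, Elovl2 being the addition. Paired over 5 numbers, the Elovl3 ratios differed by -1.8325 (Elovl1), -2.5134 (Elovl2), -2.1019 (Elovl5), -4.4253 (Elovl6) and -1.712 (Elovl7), each with an exact permutation p of 0.0625, the smallest that 5 pairs allow. Depth limits Elovl7 most (3 to 13 reads), then Elovl3 (from 33 reads) and Scd2 (from 43 reads).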

Other observations

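Sex-biased liver genes, among which Elovl3 is usually counted, were called in both directions. Of 7 tested male-biased genes, Nudt7, a peroxisomal CoA hydrolase, was higher with FSH (239 ± 66.1 against 90.4 ± 16.6 CPM, log2 fold change 1.37, limma adjusted p = 0.000194). Selenbp2 (-1.03, limma adjusted p = 0.00697) and the pheromone carrier Mup20 (-0.90, limma adjusted p = 0.0135) were lower. The male-biased calls were thus 1 higher and 2 lower of 7, and of 11 female-biased genes 2 were higher and none lower, where 6.19% of all tested genes were called higher and 4.41% lower. Cux2, a transcription factor of female liver, was at 14.2 to 25.5 CPM with FSH and 2.61 to 9.22 CPM with saline (log2 fold change 1.94, limma adjusted p = 0.000111), and Cyp2a4, a steroid hydroxylase, was higher by 0.99 on the log2 scale (limma adjusted p = 0.00374). FSH liver 2 had the highest Slco1a1 and Hsd3b5 values and the lowest Cyp3a41a and Sult2a1 values of its group. Saline liver 2 likewise had the lowest Cyp3a41a and Sult2a1 values of the saline livers. Hsd3b5, Slco1a1, Cyp3a41a and Sult2a1 did not pass the test between groups.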
